A study of Homo sapiens with 6 samples.

Results

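The transcripts of the HES, HEY and NRARP genes were examined in HSC-4 cells, an established human oral squamous cell carcinoma line, after exposure to DAPT. DAPT blocks γ-secretase, the membrane protease that cuts activated Notch receptors. The 10 genes, out of 58884 in the count files, were *HES1*, *HES2*, *HES4*, *HES5*, *HES6*, *HES7*, *HEY1*, *HEY2*, *HEYL* and *NRARP*, chosen by their current symbols. Of 6 mRNA libraries of this line, 3 came from cells kept with 50 µM DAPT for 24 h and 3 from control cells. The study's methods describe the control as the DMSO vehicle, whereas the labels say only control and the control files carry the letters GM, which the labels do not explain. If the control cells had no DMSO, the effects of vehicle and of DAPT cannot be told apart. The labels do not say whether same-group libraries came from separate cultures, so the p-values measure the spread between these libraries, which may be technical.

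When a ligand engages a Notch receptor, γ-secretase releases the receptor's intracellular domain, which enters the nucleus and joins the DNA-binding protein RBPJ and a Mastermind coactivator to switch on target genes. The HES and HEY genes encode basic helix-loop-helix repressors with an Orange domain, and several of them are the best known direct targets of this complex. *NRARP* encodes a small ankyrin repeat protein that binds the complex and dampens it, so that it acts as a feedback inhibitor. In squamous epithelium, Notch signaling is known for its part in the switch from basal to differentiating cells.

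Total counts ranged from 12276313 to 16317672 per library, and 3 counts, taken as the smallest signal of a library, corresponded to 0.187 to 0.248 CPM (counts divided by the TMM-scaled library size, times 1e6). Intervals and limits from counts cover counting error only. All 9 squamous epithelium markers were expressed, although *KRT14* reached only 3.17 ± 0.319 CPM in the controls against 2701 ± 61.9 CPM for *KRT5* (SD, n = 3 each). Control replicate 1 stood apart, since all 7 fibroblast markers were highest there, with a summed level of 566 CPM against 50.0 to 58.4 CPM in the other 5 libraries. *COL1A2*, a fibrillar collagen gene of fibroblasts, had 3452 counts in control replicate 1 and 3 to 28 counts elsewhere. Most of the fibroblast sum in the other 5 libraries was *COL1A1*, at 48.3 to 54.0 CPM. Summed endothelium markers lay between 1.24 and 1.81 CPM in the controls and between 2.41 and 2.99 CPM with DAPT, and summed leukocyte markers between 10.5 and 12.9 CPM and between 8.92 and 10.6 CPM. Of the 5 markers in each of these lists, 3 had at most 3 counts in every library, and the T cell marker *CD3E* had none. Most of the leukocyte sum was *CD14*, at 11.7 ± 1.19 CPM in the controls and 9.43 ± 0.781 CPM with DAPT (SD, n = 3 each). *CDH5*, an endothelial cadherin, had 5, 7 and 2 counts in the controls and 36, 19 and 22 with DAPT. Of the squamous markers, 6 were lower with DAPT, 3 of them at least 2-fold, and 2 were higher. Over all tested genes, 18% were lower, 1.77% were at least 2-fold lower and 17.2% were higher by the same rule. *KRT14*, 1 of these 3, was scarce, with 48, 49 and 36 counts in the controls and 11, 0 and 8 with DAPT. The part of the cell type markers in the results was not tested, apart from refits of the member genes, the pathway lists and the *HES1* share without control replicate 1. In bulk RNA, fewer cells that express a gene and less RNA per cell cannot be told apart.

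The promoters of the genes carry the DNA sequences on which the RBPJ complex is known to act. The windows from 250 bases before to 50 bases after the RefSeq gene start (GRCh38.p14) were available for 9 of the 10 genes, the exception being *HEY1*. They were searched on both strands for GTGNGAA, which includes the reported RBPJ core GTGGGAA, with letters chosen after the windows had been read. In *HES1* and *HES4*, a forward copy faced a reverse copy across 16 bases, the head-to-head arrangement described for paired RBPJ sites. These stretches of 30 bases are shown because their spacing was identical, with the motif copies in capitals:

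HES1 paired motif: GTGGGAAagaaagtttgggaagtTTCACAC
HES4 paired motif: GTGGGAAagaatgcggagccgggTTCACAC

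The *HES1* stretch lies on the plus strand at chr3:194136063-194136092, from 85 to 56 bases before the start. The *HES4* stretch lies on the minus strand at chr1:1000145-1000174, from 77 to 48 bases before the RefSeq start, and 28 of its 30 bases fall in an exon of a longer *HES4* transcript in the counting annotation. Facing copies with 14 to 18 bases between them were present in 6 of 34943 promoter windows, or 0.0172%. Besides *HES1* and *HES4* these were the windows of *ITIH4*, *MGA*, *PLPPR5-AS1* and LOC105369203. *MGA*, which encodes a MAX-binding transcription factor, was the only other tested gene of this group, at 76.2, 69.7 and 74.6 CPM in the controls and a mean of 77.3 ± 1.81 CPM with DAPT (SD, n = 3), a log2 difference of 0.07 (adjusted p = 0.331, edgeR). A match of these letters is a description of the sequence and was not tested as a binding site.

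A longer stretch is shown for 4 genes to set a promoter with the facing copies beside promoters with distant copies or none. Each is the 250 bases before the RefSeq start, 5′ to 3′ on the gene's strand, with GTGNGAA copies on either strand in capitals. None of these bases lies in an annotated exon, but the *HES2* stretch lies inside the counted gene, whose annotated 5′ end is at chr1:6424670. The intervals are chr3:194135898-194136147 on the plus strand for *HES1*, and on the minus strand chr1:2530264-2530513 for *HES5*, chr9:137302272-137302521 for *NRARP* and chr1:6419920-6420169 for *HES2*:

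HES1 upstream: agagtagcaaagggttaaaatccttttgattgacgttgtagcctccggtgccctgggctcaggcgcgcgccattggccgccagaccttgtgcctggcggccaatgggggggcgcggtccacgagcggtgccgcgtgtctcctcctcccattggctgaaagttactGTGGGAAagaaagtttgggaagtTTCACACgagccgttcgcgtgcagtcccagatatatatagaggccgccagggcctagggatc
HES5 upstream: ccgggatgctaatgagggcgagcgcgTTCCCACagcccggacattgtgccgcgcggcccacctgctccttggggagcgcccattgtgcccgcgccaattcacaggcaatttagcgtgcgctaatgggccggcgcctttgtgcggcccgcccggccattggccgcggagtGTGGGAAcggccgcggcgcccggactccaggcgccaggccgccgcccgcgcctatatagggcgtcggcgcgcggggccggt
NRARP upstream: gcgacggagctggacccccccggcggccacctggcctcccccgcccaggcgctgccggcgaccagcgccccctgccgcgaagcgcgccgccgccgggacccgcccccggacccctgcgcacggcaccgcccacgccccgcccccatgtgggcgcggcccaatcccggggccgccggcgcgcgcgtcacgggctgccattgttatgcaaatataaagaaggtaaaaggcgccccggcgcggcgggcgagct
HES2 upstream: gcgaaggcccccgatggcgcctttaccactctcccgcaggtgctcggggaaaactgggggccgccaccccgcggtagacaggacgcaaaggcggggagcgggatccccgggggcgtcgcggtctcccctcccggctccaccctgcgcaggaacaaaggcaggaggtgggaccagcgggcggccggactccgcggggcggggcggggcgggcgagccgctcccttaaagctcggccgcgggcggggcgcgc

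*HES5* and *HEY2* each held 2 copies of GTGNGAA far apart, the copies of *HES5* beginning 224 and 81 bases before the start, and *HEYL* held 1 copy. No copy was present in the windows of *NRARP*, *HES2*, *HES6* and *HES7*. Of all 34943 windows, 13.8% held at least 1 copy and 1.26% held 2 or more. The N-box CACNAG, the letters of a sequence that HES repressors bind, occurred 4 times in the *HES1* window and once at most in the others, against 38.0% of all windows with any copy and 8.96% with 2 or more. No match says only that these letters are not in this window. The windows of *HES2*, *HES6* and *HEY2* lie inside the counted genes, so the bases before the annotated 5′ ends of these genes were not searched.

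**Figure D1:**
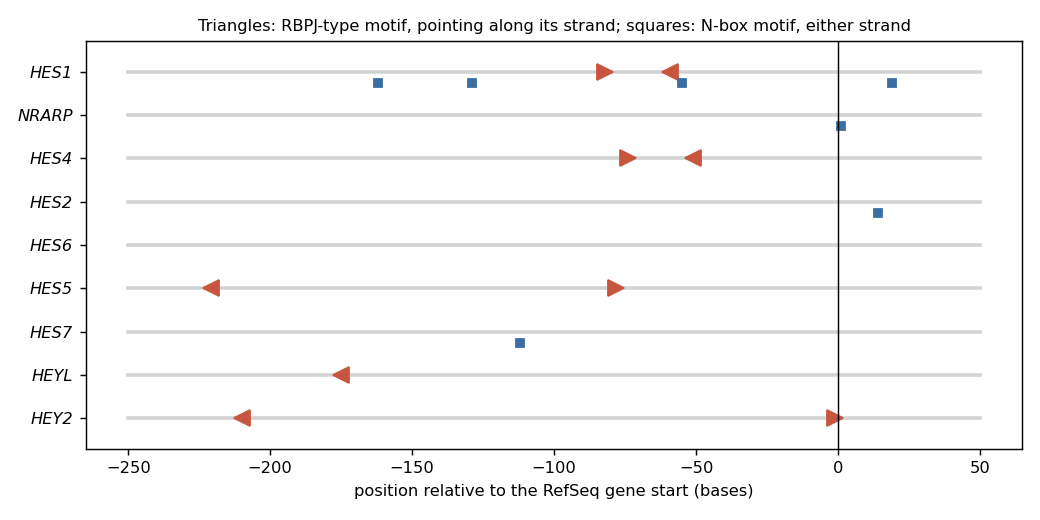
Positions of GTGNGAA (red triangles, pointing along the strand of the match) and CACNAG (blue squares) in the promoter windows of 9 genes, in bases from the RefSeq start. Facing triangles 16 bases apart are seen in *HES1* and *HES4*, and the windows of *NRARP*, *HES2*, *HES6* and *HES7* hold no triangle.

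To ask which of these genes HSC-4 cells express, levels were compared as CPM per kilobase of exon (CPM per kb). In the controls, *HES1* and *NRARP* led with 22.8 ± 1.94 and 21.3 ± 2.37 CPM per kb, followed by *HES4* with 17.0 ± 2.08 CPM per kb (SD, n = 3 each). The ranges of the 3 control libraries overlapped between *HES1* and *NRARP* and between *NRARP* and *HES4*, so these neighbours were not separated. *HEY1* followed with 10.7 ± 0.548, *HES2* with 5.49 ± 0.0893 and *HES6* with 2.55 ± 0.256 CPM per kb (SD, n = 3 each), each separated without overlap from its neighbours. *HES5*, *HES7* and *HEYL* lay far below, at 0.524 ± 0.264, 0.394 ± 0.158 and 0.376 ± 0.0905 CPM per kb (SD, n = 3 each), and did not differ beyond their spread. *HEY2* had a single count in control replicate 2 and a single count in DAPT replicate 3, and no count elsewhere, which is under the limit of 3 counts. With the length of the canonical transcript in place of all exons, an alternative added after the data were examined, *HES4* (21.5 CPM per kb) and *NRARP* (21.3 CPM per kb) exchanged places and the order was otherwise the same.

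With DAPT, 6 of the 10 genes had an adjusted p under 0.05 and were lower, and 0 were higher. Among all 15001 tested genes, 18% were lower and 17.2% were higher by the same rule, from the quasi-likelihood test of edgeR, adjusted by Benjamini-Hochberg over all tested genes. At least a 2-fold decrease was found in 5 of the 10 genes, against 1.77% of all tested genes, and 0 of the 10 were at least 2-fold higher, against 0.6%. Of the 10, 7 passed the filter on low counts, and *HEYL* passed it only through its control libraries. *HES5*, *HES7* and *HEY2* did not pass. Over all tested genes, the median log2 change was 0.01. The share of lower genes among all calls was 51.3%, and 38.5% when libraries were scaled by their size alone, whereas the 6 genes were also called lower under that scaling.

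**Figure D2:**
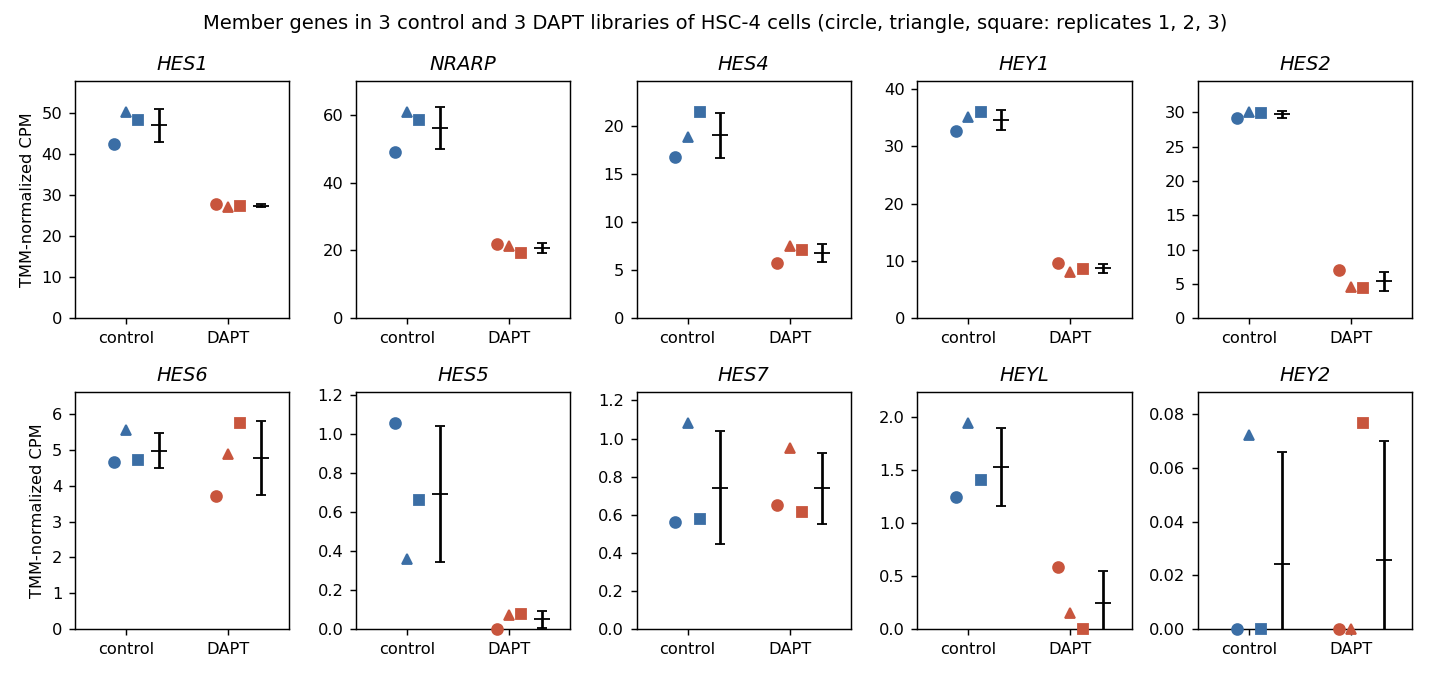
TMM-normalized CPM of the 10 genes, ordered by control level per kilobase, in 3 control (blue) and 3 DAPT (red) libraries, with the mean and SD in black beside them and axes that start at 0. The red points lie below the blue points in *HES1*, *NRARP*, *HES4*, *HEY1*, *HES2*, *HES5* and *HEYL*, and the groups overlap in *HES6*, *HES7* and *HEY2*.

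*HES1* (ENSG00000114315, chr3:194136148-194138732), the most widely used Notch readout among the HES repressors, had 42.5, 50.3 and 48.2 CPM in the control libraries and 27.9, 27.2 and 27.3 CPM in the DAPT libraries. Every DAPT library lay below every control library, as in 22.7% of all tested genes. *HES1* fell 1.71-fold (95% interval 1.53 to 1.91, adjusted p = 7.2e-08, edgeR), or -0.77 ± 0.08 on the log2 scale (standard error). This was the smallest fall among the 6 genes called, and 58.6% of the control level remained.

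*NRARP* (ENSG00000198435, chr9:137299631-137302271), the feedback inhibitor, had 49.1, 60.9 and 58.6 CPM in the controls and 21.8, 21.3 and 19.1 CPM with DAPT, again without overlap. It fell 2.70-fold (95% interval 2.38 to 3.06, adjusted p = 3.23e-11, edgeR), which left 37.0% of the control level. *HES4* (ENSG00000188290, chr1:998962-1000172), a HES1-like repressor, had 16.8, 18.8 and 21.5 CPM in the controls and 5.72, 7.53 and 7.14 CPM with DAPT. It fell 2.80-fold (95% interval 2.35 to 3.33, adjusted p = 4.01e-09, edgeR), close to *NRARP*.

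*HEY1* (ENSG00000164683, chr8:79764010-79767857), a HEY repressor best known from blood vessel and heart development, had 32.6, 35.2 and 36.0 CPM in the controls and 9.61, 8.04 and 8.60 CPM with DAPT. It fell 3.93-fold (95% interval 3.46 to 4.47), and its adjusted p of 2.03e-13 in edgeR's test was the smallest of the 10 genes. Of the 15001 tested genes, 45 had a more negative log2 fold change.

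*HES2* (ENSG00000069812, chr1:6412418-6424670), a less studied HES repressor, had 29.1, 30.0 and 29.9 CPM in the controls and 7.02, 4.61 and 4.46 CPM with DAPT. The control libraries agreed closely, and DAPT replicate 1 was the highest of the treated group. *HES2* fell 5.47-fold (95% interval 4.59 to 6.51, adjusted p = 2.36e-12, edgeR), leaving 18.3% of the control level, and 21 of the tested genes had a more negative log2 fold change.

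*HEYL* (ENSG00000163909, chr1:39623435-39639643), the third HEY gene, was scarce, with 20, 27 and 17 counts in the controls and 9, 2 and 0 counts with DAPT. Its fitted decrease of 5.71-fold had a wide 95% interval of 2.68 to 12.1 (adjusted p = 0.00104, edgeR), so its place in the order of falls was not resolved at this depth. DAPT replicate 1 held 9 of the 11 DAPT counts, and the log2 fold change was -4.19 without that library against -2.51 with all 6 libraries.

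*HES5* (ENSG00000197921, chr1:2528745-2530263), a Notch target of neural progenitors, had 17, 5 and 8 counts in the controls and 0, 1 and 1 counts with DAPT. The groups did not overlap. The ratio of DAPT to control, from 2 against 30 counts, was 0.0665 (exact 95% interval 0.0077 to 0.262, counting error only). Without control replicate 1, which held 17 of the 30 control counts, it was 0.0947 (exact 95% interval 0.0104 to 0.419) from 2 against 13 counts. *HES5* was tested only when the filter on low counts was dropped, where edgeR gave an adjusted p of 2.83e-05.

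*HES6* and *HES7* had overlapping groups. *HES6* (ENSG00000144485, chr2:238238267-238240662), which encodes an unusual family member that inhibits HES1, had 4.67, 5.56 and 4.72 CPM in the controls and 3.70, 4.90 and 5.76 CPM with DAPT. The difference was -0.07 ± 0.17 on the log2 scale (adjusted p = 0.787, edgeR, with the standard error), and the 95% interval from -0.42 to 0.28 contains neither a 2-fold decrease nor the fall of *HES1*. *HES7* (ENSG00000179111, chr17:8120592-8124106), a gene of the somite segmentation clock, had 9, 15 and 7 counts in the controls and 10, 13 and 8 counts with DAPT. The sums were 31 counts in both groups, a ratio of 0.997 with an exact 95% interval from 0.586 to 1.70 for counting error. *HEY2* (ENSG00000135547, chr6:125747664-125761269) was too scarce for any difference to be detectable at this depth. None of the 10 genes shares an exonic base with another gene of the counting annotation on either strand.

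**Figure D3:**
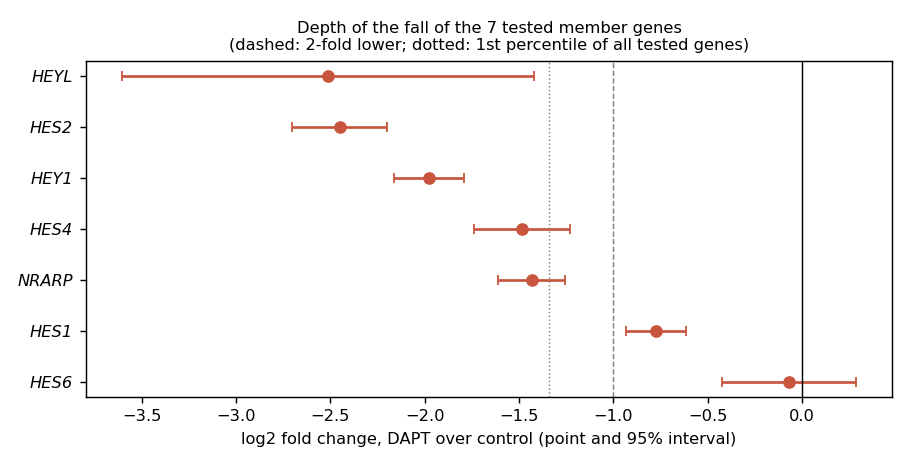
Log2 fold changes (DAPT over control) of the 7 tested genes with 95% intervals. *HES2*, *HEY1*, *HES4* and *NRARP* lie beyond the dashed 2-fold line with their whole intervals, *HES1* lies at -0.77, *HES6* spans 0, and the interval of *HEYL* runs from -3.60 to -1.42.

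To compare the depth of the falls within libraries, the log2 ratio of a gene to another gene was computed in each library for 8 pairs. The log2 ratio of *NRARP* to *HES1* in CPM was 0.21, 0.28 and 0.28 in the controls and -0.36, -0.35 and -0.51 with DAPT. The shift was -0.66, and the groups did not overlap. The sign of such a ratio depends on gene length, and only its shift is read here. Per kilobase, the mean of *HES1* was above that of *NRARP* in both groups. These means were 22.8 against 21.3 CPM per kb in the controls, with overlapping ranges, and 13.3 against 7.85 with DAPT. Relative to *HES1*, the log2 ratio shifted by -1.73 for *HES2*, by -1.21 for *HEY1* and by -0.72 for *HES4*, each without overlap. *HES2* moved by -0.52 relative to *HEY1*, with log2 ratios of -0.16, -0.23 and -0.27 in the controls and -0.45, -0.80 and -0.95 with DAPT. The groups overlapped for *HEY1* against *HES4* (-0.50) and for *HES4* against *NRARP* (-0.05). The log2 ratio of *HES1* to *HES6* shifted by -0.69 without overlap. With 3 against 3 libraries the exact two-sided permutation test cannot give a p below 0.1, which was reached in 6 of the 8 pairs (0.133 after Benjamini-Hochberg adjustment over the 8 pairs), with p = 0.2 for *HEY1* against *HES4* and p = 0.9 for *HES4* against *NRARP*.

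The make-up of the family's transcripts was compared as shares of their summed level. The summed level of the 10 genes was 73.6, 85.0 and 85.0 CPM per kb in the controls and 33.6, 34.5 and 33.7 CPM per kb with DAPT, a 2.39-fold lower mean. The share of *HES1* in this sum was 28.1%, 28.7% and 27.5% in the controls and 40.4%, 38.3% and 39.3% with DAPT. The share of *HES6* was 3.15% ± 0.269 and 7.22% ± 1.55, that of *HEY1* 13.2% ± 0.468 and 8.01% ± 0.824, and that of *HES2* 6.79% ± 0.465 and 2.93% ± 0.812 in the control and DAPT libraries (SD, n = 3 each). For *NRARP* the shares were 26.2% ± 0.938 and 23.1% ± 1.55 and for *HES4* 20.9% ± 1.43 and 17.9% ± 2.34 (SD, n = 3 each). The exact permutation p was 0.1 for the sum and for each of these 6 shares, the smallest that this design allows. The shares of a library add up to the whole, so they are not independent of each other or of the falls above. The level of *HES6* itself was 2.55 CPM per kb in the controls and 2.45 with DAPT. In rank per kilobase, *HES6* passed *HES2* with DAPT, at 2.45 against 0.991 CPM per kb. Not divided by length, *HES2* had 5.36 ± 1.44 and *HES6* 4.79 ± 1.03 CPM with DAPT (SD, n = 3 each).

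**Figure D4:**
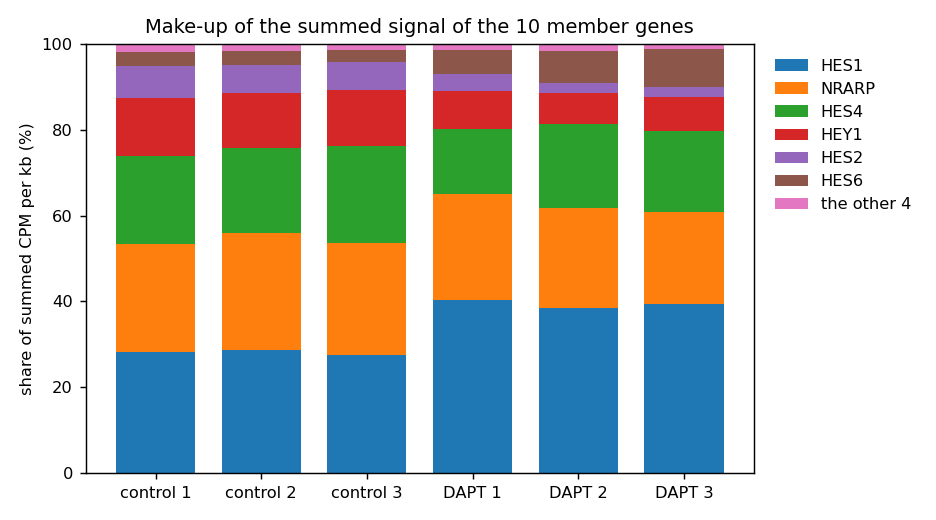
Share of each gene in the summed CPM per kb of the 10 genes, in percent, for each of the 6 libraries. The lowest block, *HES1*, has a mean of 28.1% in the controls and 39.3% with DAPT, and the blocks of *HEY1* and *HES2* are narrower with DAPT.

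The falls were as large without control replicate 1, the library with fibroblast transcripts. The log2 fold changes were then -0.84 for *HES1*, -1.52 for *NRARP*, -1.57 for *HES4*, -2.02 for *HEY1*, -2.46 for *HES2* and -2.66 for *HEYL*, each with an adjusted p under 0.05 in edgeR's test. That of *HES6* was -0.12 (adjusted p = 0.644, edgeR). The mean share of *HES1* in the family sum was 11.2 percentage points higher with DAPT, with and without that library.

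The flanking genes were examined next. Of the 14 nearest tested protein-coding genes on either side of the 7 tested genes, a set chosen after the data were examined, 3 were lower, 3 were higher and 8 did not pass the adjusted p of 0.05 in edgeR's test, beside 18% lower and 17.2% higher over all tested genes. Their median log2 fold change was -0.08. *ESPN*, an actin-bundling gene that begins 106 bases from the annotated 5′ end of *HES2* on the opposite strand, had 24, 25 and 16 counts in the controls and 13, 5 and 10 counts with DAPT. It was lower by edgeR's test (adjusted p = 0.00761), at -1.21 ± 0.34 on the log2 scale (standard error). *ISG15*, an interferon-induced ubiquitin-like modifier 966 bases from *HES4*, moved the other way, from 63.1, 62.1 and 58.8 CPM to 91.1, 113 and 87.1 CPM, a difference of 0.66 ± 0.08 on the log2 scale (standard error) with an adjusted p of 4.98e-05 (edgeR).

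The rest of the pathway was examined with 82 further genes in 10 lists. Of these, 63 were tested, 11 (17.5%) were lower and 15 (23.8%) were higher by edgeR's test, near the 18% and 17.2% over all tested genes, and 0 of them differed by 2-fold or more. In 6 of these 26 calls, those of *DLL1*, *JAG1*, *KAT2B*, *MAML1*, *MIB1* and *ADAM10*, the adjusted p exceeded 0.05 in at least 1 of 14 alternative fits. The median of their log2 changes was 0.05, against 0.01 over all tested genes. Some genes stood in more than 1 list. Among the 3 tested receptors only *NOTCH3* was lower, from 92.1 ± 7.68 to 53.4 ± 3.24 CPM (SD, n = 3 each), or -0.78 on the log2 scale. *NOTCH1* had a log2 fold change of -0.12 (95% interval -0.25 to 0.01) and *NOTCH2* of 0.08 (95% interval -0.02 to 0.18). Of the 3 tested ligands, *JAG2* (-0.31) and *JAG1* (-0.15) were lower and *DLL1* (0.16) was higher, and *DLL3*, *DLL4* and *NOTCH4* did not pass the filter. The call of *DLL1* was lost in 5 of 14 alternative fits (adjusted p = 0.078 to 0.154), namely DESeq2 and the edgeR fits without control replicate 1 or 3 or DAPT replicate 2 or 3. That of *JAG1* was lost in 3 (adjusted p = 0.0684 to 0.0932, edgeR), with library size alone and without control replicate 2 or DAPT replicate 2.

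In the proteins that work with the family, *NCSTN*, which encodes the γ-secretase subunit nicastrin, was higher (log2 fold change 0.27), and 0 of the 6 γ-secretase genes were lower. Of the 8 genes of the nuclear activator complex, 4 were higher, led by the acetyltransferase genes *CREBBP* (0.48), *EP300* (0.33) and *KAT2B* (0.22), and 0 were lower. Over all tested genes, 17.2% were higher and 18% were lower by the same rule. The call of *KAT2B* was lost in 6 of 14 alternative fits (adjusted p = 0.0521 to 0.104), with DESeq2, without a filter and without control replicate 1 or 3 or DAPT replicate 1 or 3. That of *MAML1*, the remaining gene, was lost in 5 (adjusted p = 0.0508 to 0.106), with DESeq2 and without control replicate 2 or 3 or DAPT replicate 1 or 2. *RBPJ* itself had a log2 fold change of 0.16 (95% interval 0.03 to 0.29) and an adjusted p of 0.0522 in edgeR's test. Among 10 tested corepressors, 2 were lower and 1 was higher. *TLE3*, a Groucho corepressor that HES proteins recruit, fell from 87.1 ± 3.25 to 58.2 ± 0.976 CPM (SD, n = 3 each, log2 fold change -0.58), *HDAC1* had a log2 fold change of -0.22 and *NCOR1* of 0.31. Of 18 tested modulators, *DTX3L* (0.44), *MIB1* (0.14) and *ADAM10* (0.13) were higher and 0 were lower. The call of *MIB1* was lost in 10 of 14 alternative fits (adjusted p = 0.0505 to 0.231), among them DESeq2, limma-voom and the edgeR fits without control replicate 2 or 3 or DAPT replicate 2 or 3. That of *ADAM10* was lost in 7 (adjusted p = 0.05 to 0.197, edgeR), with RLE size factors, without a filter and without each library other than control replicate 1.

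The nearest relatives of the family divided. *BHLHE40*, a stress- and clock-linked repressor with an Orange domain, fell from 106 ± 7.14 to 68.6 ± 2.28 CPM (SD, n = 3 each, adjusted p = 2.72e-08, edgeR), or -0.63 ± 0.06 on the log2 scale (standard error). *BHLHE41* had a log2 fold change of 0.03 (adjusted p = 0.884, edgeR), and *HES3* and *HELT* had no count in any library. Among the 4 ID genes, whose proteins sequester helix-loop-helix factors, *ID3* was lower (-0.59) and *ID2* was higher (0.23). Of 11 tested genes in a list of other reported Notch targets, which includes *HES6*, 6 were lower and 2 were higher, beside 18% and 17.2% of all tested genes. The largest falls were those of *NOTCH3*, *MYC* (log2 fold change -0.77) and *SOX9* (-0.70), and the increases were those of *KRT10* (0.31) and *CDKN1A* (0.29). In a list of genes known to be repressed by HES1, which holds *HES1* itself, only *CDKN1B*, a cell cycle inhibitor (0.32), and *DLL1* (0.16) were tested besides *HES1*. Both were higher, but the log2 fold change of *DLL1* was 0.10 (adjusted p = 0.151, edgeR) without control replicate 1 and its call was also lost in the other fits named above. *ATOH1* and *NEUROG3*, also of that list, had no count in any library.

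**Figure D5:**
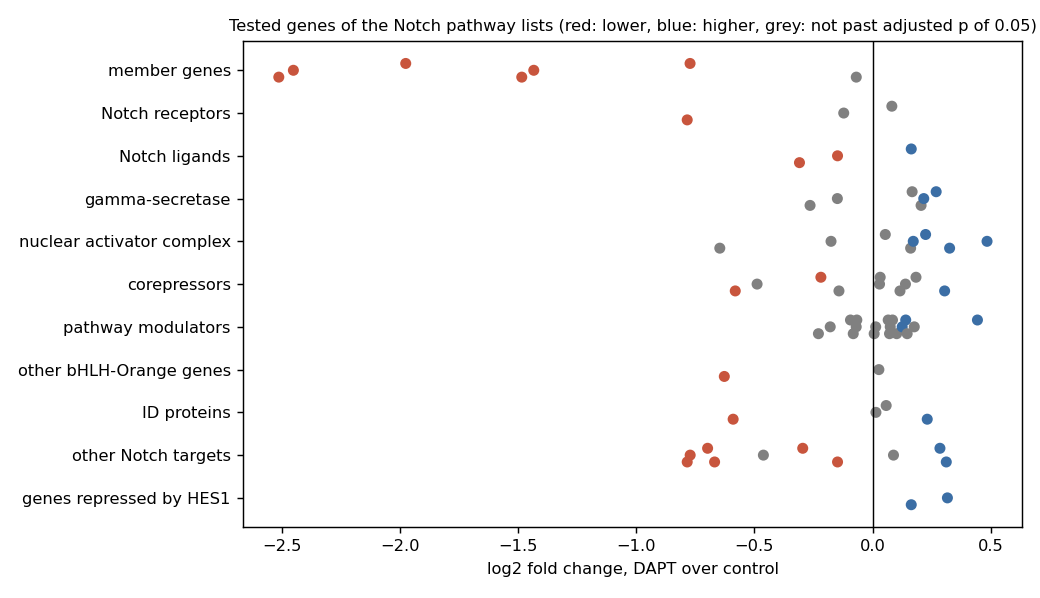
Log2 fold changes (DAPT over control) of the tested genes in each list, where red and blue points had an adjusted p under 0.05 and were lower or higher, and grey points did not pass. Members of the family are shown in the top row only and are left out of the lower rows, and no gene of the lower rows reaches a 2-fold change.

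Genes with the most similar pattern were taken for the 3 genes with the highest control level per kilobase, by Pearson correlation of log2(CPM + 0.5) over the 6 libraries. The 6 points fall into 2 groups and share their library depths, no p is given, and 780 of 11361 genes had a coefficient over 0.95 with *HES1*. The 3 most similar to *HES1* were *BHLHE40* (r = 0.998), *SLC2A1* (r = 0.998) and *FHL3* (r = 0.997). For *NRARP* they were *KRT17* (r = 0.999), *TLE3* (r = 0.999) and *PTHLH* (r = 0.998), and for *HES4* they were *UCK2* (r = 0.999), *ASIC1* (r = 0.998) and *NBEAL2* (r = 0.998). *KRT17*, a keratin of activated basal cells, had 377 ± 24.8 CPM in the controls and 205 ± 9.07 CPM with DAPT (SD, n = 3 each). *PTHLH*, the gene of parathyroid hormone-related protein, had 184 ± 12.9 and 100 ± 4.42 CPM (SD, n = 3 each).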

How the data were processed

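HSC-4 mRNA libraries (3 control, 3 DAPT) were read as 75 base single-end reads. Per the file headers and the study's methods, reads were trimmed by the authors (Trim Galore), aligned by HISAT2 against GRCh38 and assigned to exons of Ensembl release 96 genes with featureCounts 1.6.3 at the forward strand setting. Kits of the kind used often give reverse-strand reads. Of the deposited counts, 97.3% to 97.5% lay on protein-coding genes, but this share leaves out unassigned reads. Whether the setting matched the reads was therefore not tested. The authors deposited unnormalized read counts and the exon length of each gene (the other column used). By the counting defaults, reads mapping to several places or genes were left out. The submitters' processing notes also list HTSeq and DESeq2.

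Of 58884 genes, 58472 had a symbol in GENCODE release 44 under the same identifier. Groups were compared in edgeR 4.0.16 under R 4.3.3 (filterByExpr with minimum count 10, TMM, robust quasi-likelihood F test, Benjamini-Hochberg adjustment over 15001 genes). CPM values are TMM-normalized. Standard errors are the log2 fold change divided by the root of F. Alternatives are described in the closing section and used DESeq2 1.42.0 and limma 3.58.1. On simulated counts with 200 changed genes among 15001, the edgeR fit was checked before use. It recovered 94% of the changed genes, and 4.57% of its calls were unchanged genes. Scarce genes were not among those changed, and no simulated library stood apart. The check therefore does not cover scarce members such as *HEYL* or a library such as control replicate 1. The members and lists were chosen with earlier results of these data known, and lists were written from general knowledge. Named list genes are those past the adjusted p of 0.05 with the 3 largest changes in each direction of a list. Others were named after their values were seen. Promoter windows are from RefSeq (GRCh38.p14). Values of some list genes are not reported here.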

Additional observations from a re-analysis of the deposited data

How the results depend on the processing

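The direction and call of *HES1*, *HES2*, *HES4*, *HEY1*, *NRARP* and *HEYL* were the same under each alternative in which they were tested. The alternatives were RLE size factors, library size alone, DESeq2, limma-voom, a fit without robust estimation, no filter on low counts, a minimum of 10 counts in every library, the replicate block and leaving out each library in turn. The count of lower members was 7 without a filter, which added *HES5*, and 5 with at least 10 counts in every library, where *HEYL* could not be tested. The added call of *HES5* carries the limits given with its counts and its adjusted p above. The count was 6 in all fits that left out a library. *HES6* was called in 0 of 14 alternative fits, with log2 fold changes from -0.22 to 0.10. Over the alternatives, log2 fold changes ran from -0.84 to -0.72 for *HES1*, from -2.71 to -2.34 for *HES2* and from -4.19 to -1.99 for *HEYL*. With CPM in place of CPM per kb, the share of *HES1* was higher with DAPT by 12.5 percentage points instead of 11.2, since gene length was not divided out. Leaving out each library gave 10.7 to 11.7 points. In the fit with the replicate block, 6 members were lower and 0 were higher. Neither the labels nor the methods tie same-numbered libraries to a shared handling, and their deviations from the group means had correlations of 0.02, 0.04 and -0.01 across 14199 genes, so the numbers were not taken as pairs. Of the pathway lists, between 10 and 16 genes were lower and between 10 and 22 were higher over the alternatives. By Spearman correlation, 102 genes tied at the highest coefficient with *HES1*, so the order of similar genes is not resolved over 6 libraries. Depth limits *HES5*, *HES7*, *HEYL* and *HEY2*.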
